A study of Mus musculus with 6 samples.

Results

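The complement genes described here are 9 of the 57180 genes counted by RNA-seq in primary corneal endothelial cells of mice. They were taken by gene symbol as components of complement that tissues make locally, together with regulators that hold it in check: C1ra, C1s1, C4b, C3, Cfb, Cfd, Serping1, Cd55 and Cd59a. All mice were homozygous for the Q455K allele of Col8a2, a collagen chain gene of Descemet membrane, and such mice model Fuchs dystrophy of the corneal endothelium. The group called Tcf4+/- here had the label Col8a2Q455K/Q455K/Tcf4+/-, a heterozygous knockout of the transcription factor gene Tcf4 on that background, with 3 libraries, and the name stands for that label throughout. The group called Col8a2 here was labelled Col8a2Q455K/Q455K and had no other treatment, with 3 libraries. The labels used here give no age, sex or strain, do not say how the Tcf4 allele was made, and leave unsaid whether the libraries of a group are from different animals. No group without the Col8a2 mutation was analysed here. The comparison addressed the effect of heterozygous Tcf4 knockout on the corneal endothelium of these mutant mice.

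Complement is a cascade of plasma and tissue proteins that marks and lyses targets. In the classical pathway the C1q complex activates the proteases C1r and C1s, which cut C4 and C2 to build an enzyme that cleaves C3. The alternative pathway amplifies C3 cleavage through factor B and factor D. C1 inhibitor (Serping1) blocks C1r and C1s, CD55 speeds the decay of the C3-cleaving enzymes on the cell surface, and CD59 stops the terminal pore. Complement proteins and membrane regulators are known in the cornea and the fluids of the eye.

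Depth and identity of the libraries set the limits of each value. Total estimated counts ran from 30344161 to 54265479 per library, and 19635 to 22499 genes had a count. All 13 corneal endothelium markers had counts in the libraries. Their summed level was 25280, 28390 and 13640 CPM in Tcf4+/- replicates 1, 2 and 3. It was 18110, 22410 and 27940 CPM in Col8a2 replicates 1, 2 and 3. CPM are counts scaled to a common library size, with TMM factors. Markers of other tissues were high too. Stroma and fibroblast markers summed to 13390 to 21680 CPM in Tcf4+/- and 9601 to 18700 CPM in Col8a2. Corneal epithelium markers summed to 2268 to 6709 CPM in Tcf4+/- and 3003 to 6499 CPM in Col8a2. Erythroid markers summed to 1362 to 6127 CPM in Tcf4+/- and 531 to 1967 CPM in Col8a2. The complement values are thus those of mixed RNA. Tcf4 itself stood at 440, 599 and 373 CPM in the libraries labelled Tcf4+/- and at 313, 470 and 430 CPM in the Col8a2 libraries, so it was not lower in the libraries labelled as knockout. Its log2 fold change was 0.22 (standard error 0.33, 95% interval -0.52 to 0.96, edgeR adjusted p = 0.9999), and it was -0.071 on the log2(TPM + 1) scale. Which part of Tcf4 the allele removes is not in the labels used here. Tcf4+/- replicates 2 and 3 stood apart: lens markers summed to 4262 and 11230 CPM there, against 91.6 CPM in Tcf4+/- replicate 1 and 33.9 to 628 CPM in the Col8a2 libraries. In the same 2 libraries mitochondrial tRNA genes held 15.6% and 15.8% of all TPM, against 0% in the other libraries, and the authors' length minus effective length, which follows fragment or read length, was 155 and 150 bases, against 241 bases in Tcf4+/- replicate 1 and 211 to 234 bases in the Col8a2 libraries. Values without both are given beside the genes of the 9 whose sign or size they change. A male pattern was seen in Tcf4+/- replicate 3 and Col8a2 replicate 1, where Ddx3y, a Y-linked gene, stood at 34.2 and 37.7 CPM, against at most 0.02 CPM in the other libraries.

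No complement gene was called different between the groups. Of the 9 genes, 9 were tested and 0 were called higher or lower by edgeR's quasi-likelihood test at an adjusted p under 0.05, where 0.0% of 17639 genes were called. At an unadjusted p under 0.05, edgeR took 0 of the 9 and 2.42% of all genes tested. DESeq2 also called 0 of the 9, against 0.513% of its genes, and limma voom called 0. The 3 libraries of the Tcf4+/- group overlapped those of the Col8a2 group for all 9 genes, while 8.1% of all genes tested did not overlap. Thus 0 of the 9 lay wholly above in Tcf4+/-, beside 4.53% of all genes tested, and 0 lay wholly below, beside 3.57%. The fit placed 3 of the 9 higher and 6 lower, with a median log2 fold change of -0.06 beside 0.001 over all genes tested. With 3 libraries against 3 an exact two-sided permutation test cannot go below 0.1, and for these genes it gave 0.5 to 0.8.

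**Figure D1:**
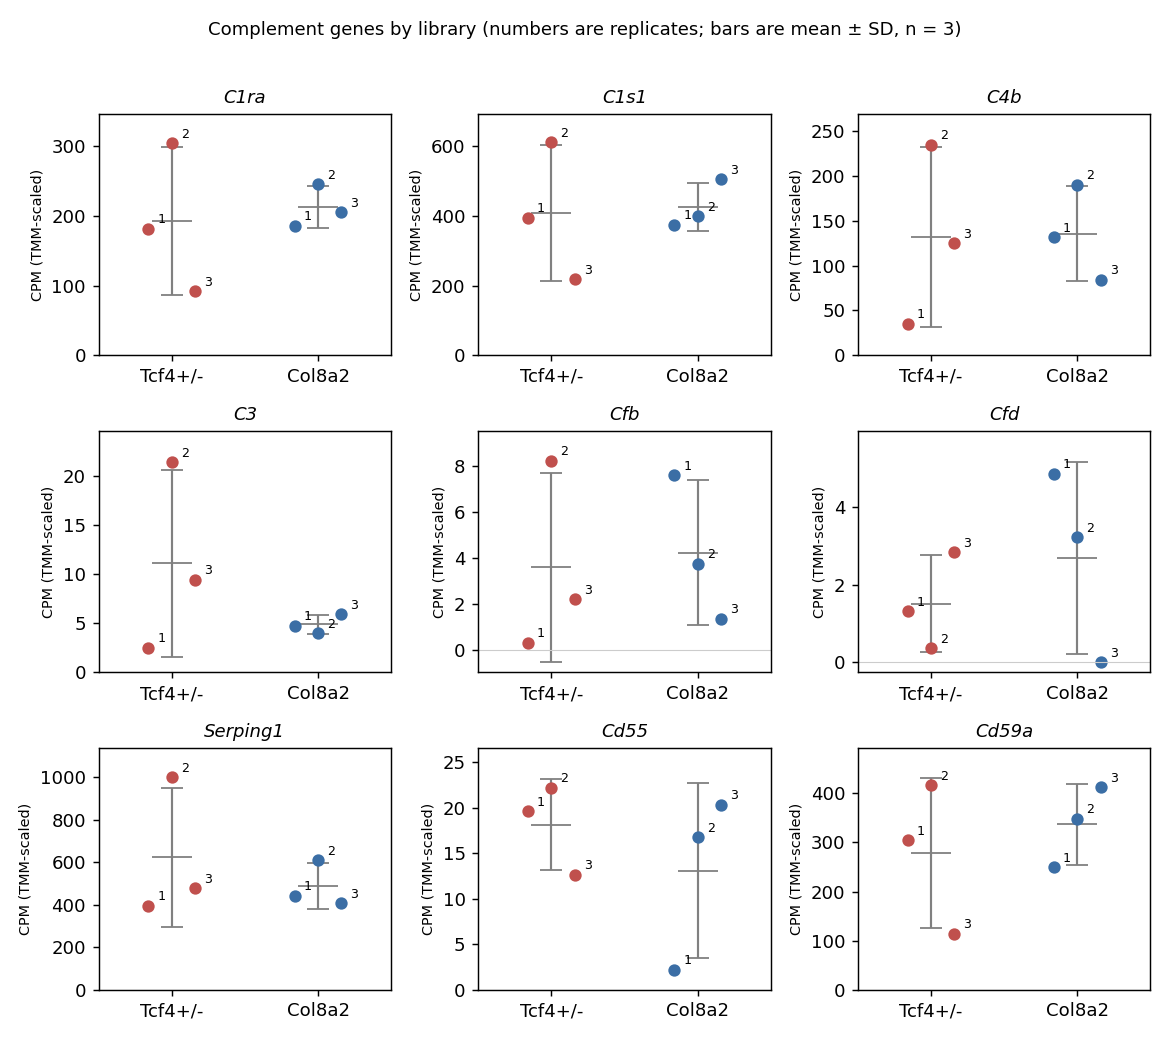
TMM-scaled CPM of each complement gene (y axis, a separate linear scale in each panel) in the 3 Tcf4+/- libraries (red, left) and the 3 Col8a2 libraries (blue, right), with replicate numbers and mean ± SD in grey. The groups overlap in every panel, and on this CPM scale Tcf4+/- replicate 2 is the highest library for 8 of the 9 genes, against 5 of the 9 by TPM.

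Promoters of C1s1, C1ra and Cd59a are shown because these genes kept nearly the same order over the 6 libraries, and that of C3 because it is the central component and followed another order. Of the 9 genes, 6 had a promoter in the RefSeq table of build GRCm38.p6, running from 250 bases before the start to 50 after it. C4b, Cfb and Serping1 had none in that table. For C1s1, which has 2 starts listed, the upstream start is given. Capitals mark E-boxes, CANNTG, the short motif that E proteins such as Tcf4 are known to bind.
C1s1, chr6:124542310-124542609, minus strand: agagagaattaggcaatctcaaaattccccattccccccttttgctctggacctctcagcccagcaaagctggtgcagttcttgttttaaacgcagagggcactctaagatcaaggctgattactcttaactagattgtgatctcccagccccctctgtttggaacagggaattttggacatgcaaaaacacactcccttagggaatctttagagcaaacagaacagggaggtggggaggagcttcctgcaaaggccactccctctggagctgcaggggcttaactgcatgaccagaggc
C1ra, chr6:124512371-124512670, plus strand: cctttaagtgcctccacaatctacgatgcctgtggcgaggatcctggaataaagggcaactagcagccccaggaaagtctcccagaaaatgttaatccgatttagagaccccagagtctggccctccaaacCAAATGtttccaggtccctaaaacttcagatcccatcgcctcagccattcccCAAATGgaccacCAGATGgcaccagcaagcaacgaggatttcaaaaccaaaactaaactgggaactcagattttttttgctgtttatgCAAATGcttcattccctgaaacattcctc
Cd59a, chr2:104095551-104095850, plus strand: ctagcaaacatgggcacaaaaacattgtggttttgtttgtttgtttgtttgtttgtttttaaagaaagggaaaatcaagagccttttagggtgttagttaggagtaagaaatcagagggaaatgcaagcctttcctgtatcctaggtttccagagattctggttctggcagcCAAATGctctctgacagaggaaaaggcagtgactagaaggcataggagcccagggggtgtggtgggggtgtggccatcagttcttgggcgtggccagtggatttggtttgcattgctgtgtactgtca
C3, chr17:57228087-57228386, minus strand: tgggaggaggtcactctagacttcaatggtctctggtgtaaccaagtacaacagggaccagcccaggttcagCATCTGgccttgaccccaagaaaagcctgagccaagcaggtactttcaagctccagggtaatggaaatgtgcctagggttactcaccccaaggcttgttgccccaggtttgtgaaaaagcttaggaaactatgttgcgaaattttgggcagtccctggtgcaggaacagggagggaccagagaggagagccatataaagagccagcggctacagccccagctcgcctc
These windows are 300 bases long, and 72.3% of the 32851 mouse promoters in the table hold an E-box on either strand. C1s1 had 0, C1ra 4, and Cd59a and C3 1 each. CAGGTG, a form of the E-box that E proteins favour, was in none of these 4 windows and in 20.2% of all promoters. It counts among the matches to CANNTG. Among the promoters not shown, that of Cfd had 3 E-boxes, of which 1 was CAGGTG. That of Cd55 had 1 E-box, which was not CAGGTG. Both strands were searched, and a match is a description of the letters only.

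C1ra and C1s1 encode the paired proteases of the C1 complex and are neighbours on chromosome 6. C1s1 stood at 395, 610 and 219 CPM in Tcf4+/- replicates 1, 2 and 3, and at 374, 399 and 505 CPM in the Col8a2 replicates. C1ra stood at 182, 305 and 92.1 CPM in the Tcf4+/- libraries, against 186, 246 and 206 CPM in the Col8a2 libraries. For both genes Tcf4+/- replicate 2 was the highest of all libraries and Tcf4+/- replicate 3 the lowest, with the Col8a2 libraries between them. The fitted log2 fold change of C1s1 was -0.06 (standard error 0.40, 95% interval -0.96 to 0.83, edgeR adjusted p = 0.9999). That of C1ra was -0.14 (standard error 0.41, 95% interval -1.06 to 0.78, edgeR adjusted p = 0.9999). On the linear scale the interval of C1s1 runs from 0.516-fold to 1.78-fold. The direction rested on Tcf4+/- replicate 3, without which the log2 fold changes were 0.23 for C1s1 and 0.19 for C1ra, and that of C1s1 was 0.08 without Col8a2 replicate 3.

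The ratio of C1s1 to C1ra was steadier than either gene. On the TPM scale it was 2.26, 2.07 and 2.43 in the Tcf4+/- libraries and 2.06, 1.69 and 2.60 in the Col8a2 libraries. The highest ratio was thus 1.54 times the lowest, while the highest TPM over the lowest was 3.62 for C1s1 and 4.24 for C1ra. The near-identical copies C1s2 and C1rb took few reads. C1s2 held 0% to 2.16% of the summed C1s1 and C1s2 counts, and C1rb 0% to 0.579% of the summed C1ra and C1rb counts, with the largest shares in Col8a2 replicate 1. Summing each pair before the fit gave log2 fold changes of -0.07 for C1s1 and -0.14 for C1ra.

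C4b encodes C4, the substrate of C1s, and was low in Tcf4+/- replicate 1. It stood at 35.1, 235 and 125 CPM in the Tcf4+/- replicates, against 132, 190 and 84.1 CPM in the Col8a2 replicates. Tcf4+/- replicate 1 was the lowest and Tcf4+/- replicate 2 the highest of the 6, a spread of 6.70-fold within the Tcf4+/- group and of 2.26-fold within the Col8a2 group. The group means were 132 ± 99.98 CPM for Tcf4+/- and 135 ± 53.0 CPM for Col8a2 (SD, n = 3 each). The log2 fold change was -0.04 (standard error 0.58, 95% interval -1.34 to 1.26, edgeR adjusted p = 0.9999). Its sign was positive without Tcf4+/- replicate 1, at 0.41, without Col8a2 replicate 2, at 0.29, with upper-quartile scaling, at 0.028, and when genes needed a mean of at least 5 CPM, at 0.005. Without Tcf4+/- replicates 2 and 3, which leaves a single library in that group that is assumed to vary like the others, it was -1.96 (edgeR unadjusted p = 0.00893, adjusted p = 1.0). C4a, the copy of C4b in the complement region of chromosome 17, held 0% to 2.01% of the summed counts of both. The summed log2 fold change was -0.04.

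C3, the protein on which all pathways converge, was among the least abundant of the 9 genes. It stood at 2.5, 21.4 and 9.42 CPM in Tcf4+/- replicates 1, 2 and 3, from 118, 1176 and 279 counts, against 4.74, 4.02 and 5.91 CPM in the Col8a2 replicates, from 223, 199 and 299 counts. Tcf4+/- replicates 2 and 3 lay above all Col8a2 libraries and Tcf4+/- replicate 1 lay below them all. The fitted log2 fold change was 1.18 (standard error 0.76), a 2.27-fold difference whose 95% interval runs from 0.695 to 7.42 (edgeR unadjusted p = 0.153, adjusted p = 0.9999). This was the smallest p of the 9 genes, and it did not pass. The 2 high libraries are also those with the highest lens markers, at 4262 CPM in Tcf4+/- replicate 2 and 11230 CPM in Tcf4+/- replicate 3. They also stood apart in mitochondrial tRNA share and in length minus effective length. These traits cannot be told apart here, and their part in the C3 level was not tested. The log2 fold change was 0.31 without Tcf4+/- replicate 2 and -0.97 without Tcf4+/- replicates 2 and 3. It was -0.18 with the lens marker level as a covariate. Without Tcf4+/- replicate 1 it was 1.65 (edgeR unadjusted p = 0.0327, adjusted p = 0.9999), and without Tcf4+/- replicate 3 or any single Col8a2 library it ran from 1.07 to 1.34.

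Genes whose levels ran most like that of C3 over the 6 libraries were Leng1, Tsc2, Rmdn2, Ephb3 and Bfsp2, among 7244 genes of at least 10 TPM. Their Pearson correlations with C3 on the log2 scale were 0.95, 0.94, 0.94, 0.93 and 0.92, and the Spearman correlations were 0.94, 1.0, 0.94, 0.83 and 0.83. Without the 2 libraries farthest from the median of C3 the Pearson values were 0.85, 0.98, 0.76, 0.83 and 0.17, so that of Bfsp2 rested on them. Bfsp2, which encodes a lens filament protein, is also among the lens markers, and it stood at 5.78, 42.8 and 13.3 CPM in the Tcf4+/- replicates and at 13.1, 11.7 and 8.97 CPM in the Col8a2 replicates. These genes were picked for the likeness, and the values of a library share its depth and any tissue carried over.

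Cfb and Cfd, the alternative pathway proteases factor B and factor D, were near the lower end of the range. Cfb stood at 0.339, 8.23 and 2.23 CPM in the Tcf4+/- replicates, from 16, 453 and 66 counts, against 7.60, 3.76 and 1.38 CPM in the Col8a2 replicates, from 358, 186 and 70 counts. Tcf4+/- replicate 1 was the lowest and Tcf4+/- replicate 2 the highest, with the Col8a2 libraries in between. Its log2 fold change was -0.24 (standard error 1.15, 95% interval -2.81 to 2.34, edgeR adjusted p = 0.9999). It was 0.30 without Tcf4+/- replicate 1, 0.004 without Tcf4+/- replicate 3, 0.48 without Col8a2 replicate 1, -1.70 without Tcf4+/- replicate 2, and -3.65 with neither of Tcf4+/- replicates 2 and 3 (edgeR adjusted p = 1.0).

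Cfd stood at 1.31, 0.363 and 2.84 CPM in the Tcf4+/- replicates and at 4.84, 3.21 and 0 CPM in the Col8a2 replicates. The 0 counts in Col8a2 replicate 3 allow a level of up to 0.0592 CPM, the limit set by 3 counts, for counting error only. Col8a2 replicates 1 and 2 lay above all Tcf4+/- libraries and Col8a2 replicate 3 below them, so the largest and the smallest value were both in the Col8a2 group. For Cfd the fitted log2 fold change was -0.84 (standard error 1.69, 95% interval -4.63 to 2.95, edgeR adjusted p = 0.9999). Its sign turned with limma voom, at 0.93, and on the log2(TPM + 0.1) scale, at 0.004. It was -1.69 without Tcf4+/- replicate 3, -1.43 without Col8a2 replicate 3, -0.10 without Col8a2 replicate 1, and -1.04 without Tcf4+/- replicates 2 and 3.

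Serping1, the C1 inhibitor, was the most abundant of the 9 genes. It stood at 395, 1000.0 and 478 CPM in the Tcf4+/- replicates and at 443.5, 609 and 407 CPM in the Col8a2 replicates. A single library, Tcf4+/- replicate 2, lay above the rest, and the other Tcf4+/- libraries lay within or just below the Col8a2 range. The means were 625 ± 328 CPM for Tcf4+/- and 487 ± 108 CPM for Col8a2 (SD, n = 3 each). The log2 fold change of 0.36 (standard error 0.41, 95% interval -0.56 to 1.28, edgeR adjusted p = 0.9999) became -0.14 without Tcf4+/- replicate 2 and -0.31 without Tcf4+/- replicates 2 and 3.

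Serping1 also varied against its target protease. The TPM ratio of Serping1 to C1s1 was 1.76, 2.84 and 3.77 in the Tcf4+/- replicates and 2.09, 2.68 and 1.39 in the Col8a2 replicates. The groups overlapped in this ratio, and its highest value was 2.71 times its lowest.

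The membrane regulators Cd55 and Cd59a differed in level and in which library was low. Cd59a, the mouse CD59 gene that is broadly expressed, stood at 305, 417 and 114 CPM in the Tcf4+/- replicates and at 250, 348 and 412 CPM in the Col8a2 replicates. Tcf4+/- replicate 3 was the lowest by a wide margin, and the other Tcf4+/- libraries lay at or near the Col8a2 range. The log2 fold change was -0.27 (standard error 0.46, 95% interval -1.29 to 0.75, edgeR adjusted p = 0.9999), and it was 0.09 without Tcf4+/- replicate 3. Its neighbour and copy Cd59b took 0.553% to 1.86% of the counts of both.

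Cd55 stood at 19.6, 22.2 and 12.6 CPM in the Tcf4+/- replicates and at 2.21, 16.8 and 20.4 CPM in the Col8a2 replicates. Col8a2 replicate 1, at 104 counts, was the lowest, and the next lowest library, Tcf4+/- replicate 3, was well above it. The fit gave a log2 fold change of 0.47 (standard error 0.69, 95% interval -1.07 to 2.01, edgeR adjusted p = 0.9999). Without Col8a2 replicate 1 it was -0.03. Cd55b, the mouse copy next to Cd55, had 0 counts in all 6 libraries, and Gm16083, an antisense gene that overlaps Cd55, had 26 counts in all.

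**Figure D2:**
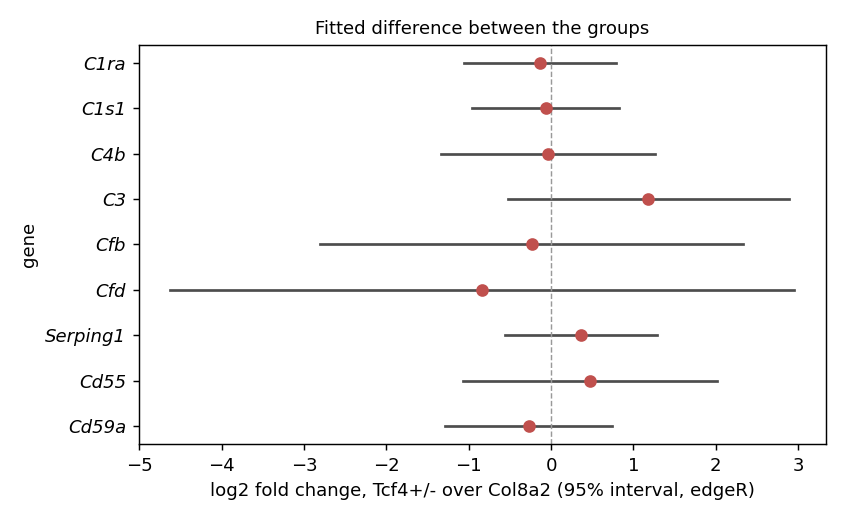
Fitted log2 fold change of each gene, Tcf4+/- over Col8a2 (points), with its 95% interval from the edgeR fit (lines) and 0 as the dashed line. All 9 intervals cross 0, and they are widest for the low-count genes Cfd, at -4.63 to 2.95, and Cfb, at -2.81 to 2.34.

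The 9 genes varied more among the Tcf4+/- libraries than among the Col8a2 libraries in 7 of 9 cases, beside 50.02% of all genes tested. These 7 cases are not independent, because Tcf4+/- replicate 2 was the highest library by CPM for all 7. The Tcf4+/- group also joins replicates 2 and 3, which stood apart in lens markers, mitochondrial tRNA and length, with replicate 1. The part of these traits in the spread was not tested and cannot be told apart from genotype here. For C3 the SD of log2(CPM + 0.5) was 1.44 in the Tcf4+/- group and 0.253 in the Col8a2 group, and for C1ra it was 0.863 in the Tcf4+/- group and 0.203 in the Col8a2 group. The exceptions were Cfd, at 0.976 in Tcf4+/- and 1.84 in Col8a2, and Cd55, at 0.417 in Tcf4+/- and 1.63 in Col8a2. The medians over all genes tested were 0.532 in the Tcf4+/- group and 0.519 in the Col8a2 group, and over those of at least 10 TPM, which 5 of the 9 reach, 0.409 in the Tcf4+/- group and 0.36 in the Col8a2 group.

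By CPM, Tcf4+/- replicate 2 was the highest of the 6 libraries for 8 of the 9 genes, all but Cfd. Of all genes tested of at least 1 TPM, 13.1% were highest in that library by CPM. By deposited TPM it was highest for 5 of the 9, beside 9.55% of all genes tested, while C4b, Cfb and Cd59a were highest in Col8a2 replicate 2, beside 34.6% of all genes tested. Of 21 other complement genes of that level, 6 were highest by CPM in Tcf4+/- replicate 2, which is 28.6%. As many, 6, were highest in Col8a2 replicate 2, and 5 were highest in Tcf4+/- replicate 3. Of all genes tested of that level, 18.5% were highest in Col8a2 replicate 2 and 22.5% in Tcf4+/- replicate 3. The summed level of the 9 genes was 1336, 2619 and 1055 CPM in the Tcf4+/- replicates and 1405, 1820 and 1642 CPM in the Col8a2 replicates. Tcf4+/- replicate 2 also had the highest summed markers in 5 of 9 marker lists. These were corneal endothelium, corneal stroma and fibroblasts, melanocytes, vascular endothelium, and trabecular meshwork and iris. Its corneal endothelium sum of 28390 CPM was close to the 27940 CPM of Col8a2 replicate 3. Stromal and fibroblast markers, all 10 with counts, summed to 13390, 21680 and 15810 CPM in the Tcf4+/- replicates and to 18700, 12480 and 9601 CPM in the Col8a2 replicates. Their part in the complement levels was not tested, and in bulk RNA fewer cells of a type and less RNA per cell cannot be told apart.

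Below that library the genes did not all follow the same order. C1s1, C1ra and Cd59a were lowest in Tcf4+/- replicate 3, the library with the lowest summed corneal endothelium markers. C3, C4b, Cfb and Serping1 were lowest in Tcf4+/- replicate 1. Not all endothelium markers followed the sum. Slc4a11, Car3, Ptgds, Tjp1 and Foxc1 were not lowest in Tcf4+/- replicate 3, while the other endothelium markers were. Slc4a11 stood at 3046 CPM there, against 2335 and 2283 CPM in Col8a2 replicates 1 and 2. Over the 6 libraries C1s1 had a Pearson correlation of 0.96 with Cd59a and of 0.93 with C1ra, and C4b had one of 0.90 with Cfb and of 0.77 with Serping1 on the log2 scale. C1s1 with C4b gave 0.16. Between C1s1, C1ra or Cd59a and C4b, Cfb or Serping1, Pearson values ran from 0.05 (Cd59a with C4b) to 0.57 (C1ra with Serping1). Spearman correlations of these pairs ran from 0.26 (C1s1 and Cd59a with Cfb) to 0.71 (C1ra with C4b). The orders were thus not cleanly separate. These values describe 6 libraries that share depth and tissue composition. Tcf4+/- replicate 3 had the lowest summed endothelium markers, and its part in the low C1s1, C1ra and Cd59a values was not tested. With the endothelium level as a covariate no complement gene was called, and none was called without it, so this does not measure that part. The libraries with the male pattern were the lowest of their group for C1s1, C1ra, Cd59a and Cd55. Of all genes tested of at least 1 TPM, 40.3% were lowest of their group in Tcf4+/- replicate 3 and 34.4% in Col8a2 replicate 1. These shares are for each library alone, and the share of genes lowest in both of these libraries is not given here. These libraries also had the lowest summed endothelium markers of their groups, at 13640 and 18110 CPM. The male pattern and a low endothelium level thus cannot be told apart here. With the male pattern as a covariate 0 complement genes were called, as without it. The log2 fold changes were then -0.15 for C1s1, -0.26 for C1ra, -0.42 for Cd59a and 0.91 for Cd55.

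**Figure D3:**
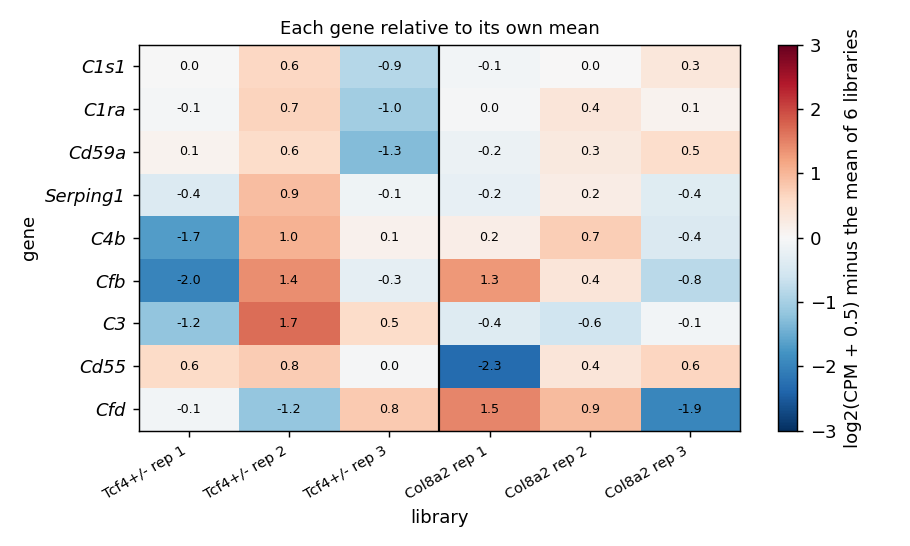
Log2(CPM + 0.5) of each gene minus its own mean over the 6 libraries (colour and printed value), with genes in rows and libraries in columns, Tcf4+/- left of the line and Col8a2 right of it. C1s1, C1ra and Cd59a share a low in Tcf4+/- replicate 3, C4b, Cfb and C3 share a low in Tcf4+/- replicate 1, and Cd55 is low in Col8a2 replicate 1.

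The levels per transcript length differed widely, with the regulators Serping1 and Cd59a at the top and C3 at the bottom. In order of mean TPM over the 6 libraries, Serping1 stood at 381, Cd59a at 230, C1s1 at 166, C4b at 99.3, C1ra at 78.6, Cd55 at 9.20, Cfb at 3.08, Cfd at 3.07 and C3 at 1.95 TPM. Serping1 lay above 98.1% of the genes tested and C3 above 27.6%. The range over libraries of each gene overlapped that of the next in this order, except between C1ra, at 26.8 to 114 TPM, and Cd55, at 2.75 to 12.7 TPM. Ranges over libraries thus do not separate neighbours within the upper 5 or within the lower 4. Within single libraries part of the order held throughout. The TPM ratio of Serping1 to C1s1 was 1.39 to 3.77, and that of C1s1 to C1ra was 1.69 to 2.60. Other parts did not hold, as Serping1 lay below Cd59a in Col8a2 replicate 3, at 294 against 308 TPM.

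Length matters for C4b, Cfb, C3 and Cd55, because the authors' estimate split reads among short and long transcripts. The mean transcript length behind the C4b values was 1186 to 1950 bases, while its longest annotated transcript has 5379 bases. For Cfb it was 997 to 2456 bases beside 2751, for Cd55 1020 to 2239 bases beside 3133, and for C3 it was 2680 bases in Tcf4+/- replicate 1 and 5136, the full length, in Tcf4+/- replicate 3 and Col8a2 replicates 1 and 3. Per kilobase of the longest transcript, C4b stood at 24.8 CPM and moved below C1ra, at 68.0 CPM, and Cfb, at 1.43 CPM, moved below C3, at 1.56 CPM. On the TPM scale the lowest C3 library was Col8a2 replicate 1, at 0.97 TPM, and no longer Tcf4+/- replicate 1, at 1.08 TPM. C3 TPM was 1.08, 5.35 and 1.56 in the Tcf4+/- replicates and 0.97, 1.45 and 1.31 in the Col8a2 replicates.

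**Figure D4:**
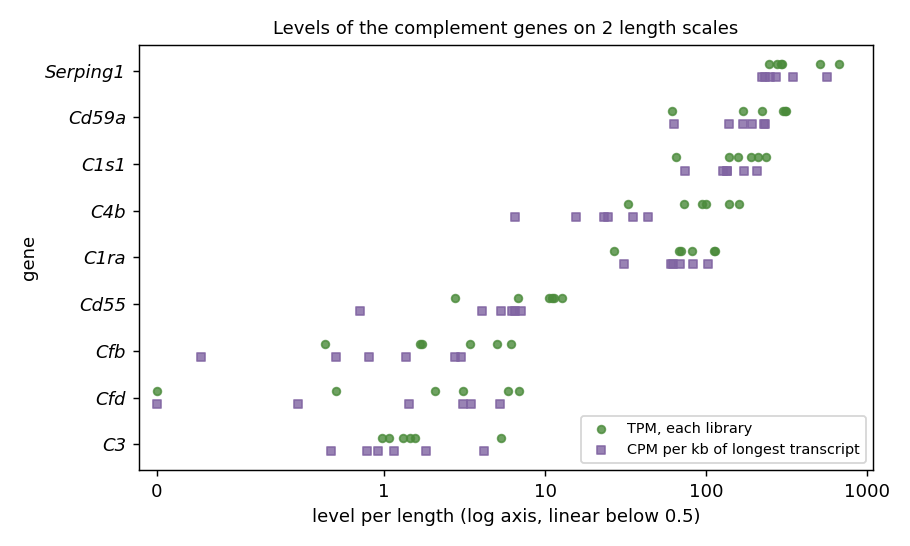
Level per length of each gene in each of the 6 libraries, as deposited TPM (green circles) and as CPM per kilobase of the longest annotated transcript (purple squares), on a log axis that is linear below 0.5. Serping1 is highest on both scales, and C4b shifts left on the second scale, from a mean of 99.3 TPM to 24.8 CPM per kilobase.

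The other genes of complement were listed by role, 56 in all with the 9 above, of which 39 were tested and 0 were called in either direction. The fit placed 17 higher and 22 lower, with a median log2 fold change of -0.06, and 0 of the 39 had an unadjusted edgeR p under 0.05, beside 2.42% of all genes tested. DESeq2 gave an unadjusted p of 0.0153 for Cd46 and 0.0401 for C3ar1, with adjusted p of 0.543 and 0.776. Of the 47 genes beside the 9, 30 were tested, and the groups did not overlap for 2 of them, where 8.1% of all genes tested did not overlap. Cd46, a cofactor for C3b cleavage, stood at 5.83, 10.2 and 4.52 CPM in the Tcf4+/- replicates and at 1.83, 1.58 and 3.75 CPM in the Col8a2 replicates. All 3 Tcf4+/- libraries lay above the Col8a2 libraries, at a log2 fold change of 1.52 (standard error 0.79, edgeR unadjusted p = 0.0829). Colec11, a soluble collectin, was at 0 to 0.254 CPM in the Tcf4+/- libraries and 0.534 to 0.989 CPM in the Col8a2 libraries, with an unadjusted edgeR p of 0.14.

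Classical pathway genes were present down to C1q, whose chains are made by macrophages in many tissues. C1qb stood at 22.3, 46.1 and 74.0 CPM in the Tcf4+/- replicates and at 42.8, 62.3 and 17.9 CPM in the Col8a2 replicates. The groups overlapped, and C1qa, C1qb and C1qc had log2 fold changes of 0.48, 0.21 and 0.27. Myeloid markers, all 10 with counts, summed to 349, 300.3 and 533 CPM in the Tcf4+/- replicates and to 343, 815 and 226 CPM in the Col8a2 replicates. The lowest library for both C1qb and the myeloid markers was Col8a2 replicate 3. The highest was Tcf4+/- replicate 3 for C1qb and Col8a2 replicate 2 for the myeloid markers. A single marker, Lyz2, held 657 of the 815 CPM in Col8a2 replicate 2 and 154 of the 226 CPM in Col8a2 replicate 3. The part of myeloid cells in the C1q levels was not tested. C2, the partner of C4, had a log2 fold change of -0.13 and C1rl, a C1r-like protease, one of -0.16.

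Lectin pathway genes were led by Masp1, a protease bound to collectins, and Colec12, a membrane collectin. The log2 fold change of Masp1 was -0.37 (standard error 0.38) and that of Colec12 -0.05 (standard error 0.47), or -0.88 without Tcf4+/- replicates 2 and 3. Mbl1, Mbl2, Fcnb and Colec10 had 0 counts in all libraries. Of the 7 terminal pathway genes 2 were tested, C8g, at -0.43 (standard error 0.70), and Hc, and C6, C8a and C8b had 0 counts in all libraries. Cfp, properdin, which stabilises the alternative pathway enzyme, was at 0.56 (standard error 0.70).

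Among soluble regulators Clu, clusterin, which binds the terminal complex, was the highest complement gene, at 1536, 3225 and 1076 CPM in the Tcf4+/- replicates and 2831, 3799 and 2262 CPM in the Col8a2 replicates. The groups overlapped, and the log2 fold change was -0.61 (standard error 0.47, edgeR unadjusted p = 0.226). C4bp and Cpn2 had 0 counts in all libraries. Cr1l, which encodes the rodent membrane regulator Crry, was steady, at 54.5 to 85.9 CPM in the Tcf4+/- group and 58.1 to 76.5 CPM in the Col8a2 group, with a log2 fold change of -0.07 (standard error 0.29). Among receptors Itgam, the alpha chain of complement receptor 3, had a log2 fold change of 0.23 and Cr2, complement receptor 2, one of 1.47 (edgeR unadjusted p = 0.109). That of Cr2 was 0.47 without Tcf4+/- replicate 1 and 2.47 without Tcf4+/- replicates 2 and 3 (edgeR unadjusted p = 0.0251, adjusted p = 1.0). C3ar1, the C3a receptor, reached 14.6 CPM in Tcf4+/- replicate 3 and was at 0.826 and 4.43 CPM in the other Tcf4+/- libraries, against 0.415 to 2.20 CPM in the Col8a2 group.

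**Figure D5:**
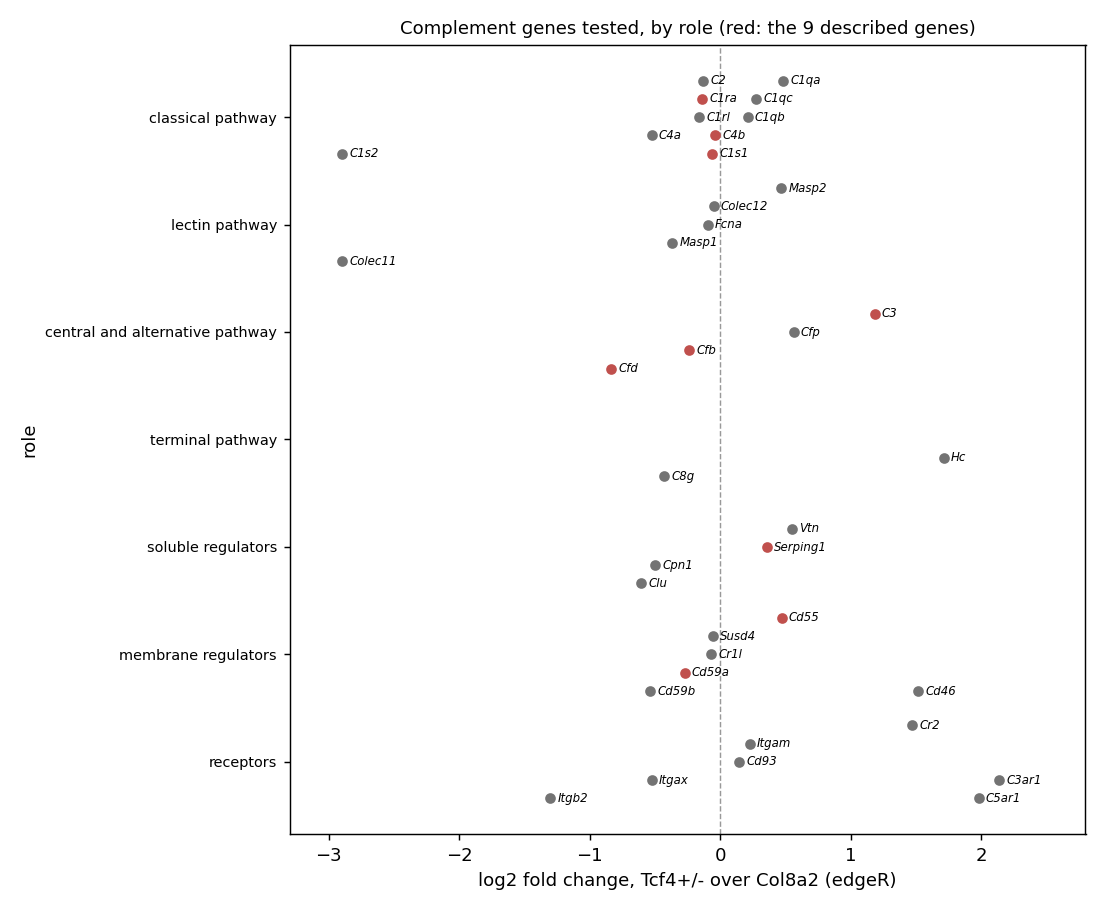
Fitted log2 fold change, Tcf4+/- over Col8a2 (x axis), of complement genes tested, in rows by role, with the 9 described genes in red and the others in grey and the vertical position within a row carrying no value. Genes lie on both sides of 0 in each row, and none passed the test.

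Genes of cytokine signals known around complement induction, listed together with acute-phase genes, gave no call by edgeR. Of 25 listed, 21 were tested, 7 fitted higher and 14 lower, with a median log2 fold change of -0.13, and 1 had an unadjusted p under 0.05. That gene was Bcl3, an atypical IkB protein of the NF-kappaB pathway, which stood at 12.2, 8.0 and 14.4 CPM in the Tcf4+/- replicates and 32.9, 31.3 and 27.7 CPM in the Col8a2 replicates. Its groups did not overlap, the log2 fold change was -1.41 (standard error 0.37, edgeR unadjusted p = 0.00353, adjusted p = 0.9999), and DESeq2 called it (adjusted p = 0.0243). The groups also did not overlap for Il1b, a cytokine gene that was higher in Tcf4+/- at 1.85 to 4.11 CPM, against 0.212 to 1.36 CPM in Col8a2 (edgeR unadjusted p = 0.194). Socs3, a feedback inhibitor of cytokine signalling, was lower in Tcf4+/- without overlap, at 5.54 to 24.8 CPM, against 28.0 to 31.1 CPM in Col8a2 (edgeR unadjusted p = 0.0526). Nfkbia and Irf1, the genes of highest mean TPM in the list, had log2 fold changes of -0.38 and -0.09. Ifng had 0 counts in all libraries and Il6 had a count in Tcf4+/- replicate 3 only.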

How the data were processed

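RNA-seq of corneal endothelial cells gave 6 libraries, 3 in each group, with groups and replicate numbers taken from the titles. The labels' protocols give a micro column kit for RNA, which was amplified as full-length cDNA with the SMART-Seq HT Kit and made into Nextera XT libraries, which are not described as keeping strand. FastQC 0.12.1, fastp 0.23.2, STAR, RSEM, DESeq2 and build GRCm39 are named in the submitters' processing notes; for other versions and for the gene annotation no entry is given in the sources. The deposited expected counts are unscaled, and 9.97% of them were not whole (tolerance 0.005). The deposited TPM values are scaled to length, and the lengths behind them, in bases, are per the file headers.

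Of 57180 identifiers, 51884 matched a symbol in a table of gene names. Transcript lengths and overlapping genes came from GENCODE M21 (GRCm38), and neighbours from RefSeq (GRCm38.p6). Reads that fit near-identical genes were split by RSEM, which leaves C4b, C1ra, C1s1, Cd55, Cd59a and their copies uncertain by the shares given. Counts were rounded, filtered with filterByExpr to 17639 genes, scaled by TMM and tested with edgeR 4.0.16 in R 4.3.3 (quasi-likelihood F-test, robust, group as the only term, Benjamini-Hochberg over all genes, threshold 0.05). Alternatives used DESeq2 1.42.0, limma 3.58.1, other scalings, filters, covariates, the replicate block and libraries left out. The functions were tested on simulated counts with known changes. The labels do not say that libraries are separate animals, so p-values reflect only how these samples vary, which may be technical.

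The members and lists were chosen with earlier results of these data known. Named genes were the 9 members, Tcf4, the copies of members, the 5 genes most like C3, and, from the lists, genes of at least 1 TPM with an unadjusted p under 0.05 and the 2 of highest TPM in each role. C1qa, C1qb, C1qc, C2, C1rl, Cd46, Colec11, C3ar1, Hc, Il1b, Socs3, Ifng, Il6, Lyz2 and the genes at 0 were named after their values were seen. Some results are not reported here. Counting limits and floors cover counting error only.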

Additional observations from a re-analysis of the deposited data

How the results depend on the processing

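Across 21 alternatives, edgeR, DESeq2 and limma called 0 of the 9 complement genes and 0 of the other complement genes. Over all genes the count was 0 in the fit reported and 107 with DESeq2, and it ran from 0 to 4 when each library was left out, with the 4 without Col8a2 replicate 3. The cause was not tested. The median log2 fold change of the 9 genes ran from -0.47 to 0.30.

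Signs of small log2 fold changes turned under some settings. With each library left out in turn, values ran from -0.734 to 0.408 for C4b, -0.466 to 0.231 for C1s1, -0.628 to 0.187 for C1ra, -1.703 to 0.484 for Cfb, -0.68 to 0.094 for Cd59a, -0.033 to 0.937 for Cd55 and -0.141 to 0.6 for Serping1. They ran from 0.31 to 1.652 for C3, -1.688 to -0.1 for Cfd, 0.471 to 1.958 for Cr2, -1.173 to -0.324 for Clu, -0.771 to 0.232 for Colec12, -0.29 to 0.05 for Cr1l, -0.193 to 0.894 for Cfp, -0.166 to 0.634 for Itgam and -0.458 to 0.298 for Irf1. Leaving out both Tcf4+/- replicates 2 and 3 turned C3 (-0.974), Serping1 (-0.307), Cfp (-0.18), Itgam (-0.205) and Irf1 (0.206), and moved Clu to -0.956 and Cr2 to 2.467. The lens covariate turned C3 (-0.176) and Itgam (-0.311). Upper-quartile scaling turned C4b (0.028) and Colec12 (0.001). The filter at 5 CPM turned C4b (0.005) and left out Cfb and Cfd. Limma voom turned Cfd (0.931) and Irf1 (0.066). The log2(TPM + 1) scale turned Tcf4 (-0.071), and without mitochondrial tRNA genes Irf1 (0.015), while log2(TPM + 0.1) turned Tcf4 (-0.072) and Cfd (0.004). On these scales the median of all genes itself lay at -0.152, -0.027 without those tRNA genes, and -0.178 with log2(TPM + 0.1). The cause was not tested. The ranking by length of the longest transcript was chosen after seeing the data.

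The replicate block turned Irf1 (0.067) and called 0 genes. Deviations of same-numbered libraries correlated at -0.072, 0.367 and -0.031, so the numbers were not taken as pairs. With the block the median log2 fold change of the 9 genes was -0.289 and C3 was at 0.719. Counting error weighs on genes with few counts, such as Cfb with 16 and Cfd with 0 in a library.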
